A study of Canis lupus familiaris with 6 samples.

Results

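The genes of the transforming growth factor beta (TGF-beta) superfamily were examined in canine mammary tumor cells, with their expression in each of 3 cell lines and the change in each line on co-culture with myeloid-derived suppressor cells (MDSCs). Members were taken by name: every probe that was not a control and whose gene symbol in the array files was that of a TGF-beta, an activin or inhibin, a bone morphogenetic protein (BMP), a growth and differentiation factor (GDF), one of their receptors, a latent TGF-beta binding protein, an extracellular antagonist, a SMAD, a SMURF, SKI, SKIL, an ID protein or TGFBI. The rule found 78 probes for 51 genes among 43603 probes with 35582 symbols. All 51 symbols were found in the RefSeq gene table for the dog. Of 50 genes regarded as the core of the pathway, 38 had such a probe. The other 12 were BMPR2, ENG, INHBB, FST, FSTL3, NOG, CHRD, SMAD3, SMURF1, ID1, ID2 and ID4.

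The lines were P114, derived from an anaplastic mammary cancer, CMT-U27, derived from a simple carcinoma, and CMT-U309, derived from a spindle cell tumor. Each is an established line and stands for 1 tumor. No untransformed mammary cells were among the samples. Each line was grown alone (monoculture) or below a culture insert that held MDSCs, for at least 72 h according to the sample labels. The methods of the study give a shorter time. The MDSCs had been sorted from the blood of healthy dogs as cells positive for CD11b, Gr1 and CD33. RNA of the tumor cells of both cultures was hybridised together on 2 arrays per line, with the Cy5 and Cy3 dyes exchanged between them, which gave 6 arrays and 12 channels. The 2 arrays of a line held the same pair of RNA extracts and counted as 1 replicate, so that n was 3 lines for co-culture and 2 cultures for the level in a line. Both arrays of a line lay on 1 slide and each line had its own slide, so line and slide cannot be told apart.

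Ligands of this superfamily are secreted dimers that bring together type I and type II serine/threonine kinase receptors on the cell surface. TGF-betas and activins act mainly through SMAD2 and SMAD3, and BMPs mainly through SMAD1, SMAD5 and SMAD9, and both groups share SMAD4 as the partner that enters the nucleus with them. SMAD6, SMAD7 and the SMURF ubiquitin ligases restrain the signal, and latent TGF-beta binding proteins hold TGF-beta in the matrix until it is released. In mammary epithelium TGF-beta is best known for arresting growth in normal cells and for promoting epithelial-mesenchymal transition in tumor cells.

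The results turned on the probes of a few ligands, receptors, a SMAD and an extracellular protein, and their 60-base sequences are printed because each value below is the signal of such a stretch and not of the whole transcript. Positions are those of the canFam2 dog genome in the array files, which name no exon or UTR. The INHBA probe lies at chr18:11269189-11269248 on the plus strand, and the BMP4 probe at chr8:33027719-33027778 on the minus strand. The BMP7 probe lies at chr24:45185933-45185992 and the TGFB3 probe at chr8:51961619-51961678, both on the minus strand. The TGFB1 probe lies on the plus strand at chr1:115545645-115551482. The TGFBR2 probe lies at chr23:16947218-16947277 on the minus strand, the TGFBR1 probe at chr11:59248945-59249004 on the plus strand and the BMPR1B probe at chr32:20924809-20924868 on the plus strand. The SMAD4 probe lies at chr1:26942984-26943487 and the FSTL1 probe at chr33:26940962-26942549, both on the minus strand. The TGFB1, SMAD4 and FSTL1 probes span 5838, 504 and 1588 bases of the genome, so their 60 bases are interrupted there. Capitals mark the 33 bases that the INHBA and BMP7 probes share when laid side by side over 57 bases without gaps.
INHBA: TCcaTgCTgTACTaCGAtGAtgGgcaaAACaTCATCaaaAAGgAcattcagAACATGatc
BMP7: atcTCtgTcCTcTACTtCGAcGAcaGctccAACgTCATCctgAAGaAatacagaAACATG
BMP4: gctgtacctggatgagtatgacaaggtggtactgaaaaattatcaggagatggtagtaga
TGFB3: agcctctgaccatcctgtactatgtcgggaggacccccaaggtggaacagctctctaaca
TGFB1: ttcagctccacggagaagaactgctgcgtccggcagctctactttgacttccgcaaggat
TGFBR2: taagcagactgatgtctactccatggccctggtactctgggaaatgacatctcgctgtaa
TGFBR1: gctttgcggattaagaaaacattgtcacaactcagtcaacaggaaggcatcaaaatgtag
BMPR1B: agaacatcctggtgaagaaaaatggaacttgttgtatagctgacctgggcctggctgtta
SMAD4: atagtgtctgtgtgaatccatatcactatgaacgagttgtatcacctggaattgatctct
FSTL1: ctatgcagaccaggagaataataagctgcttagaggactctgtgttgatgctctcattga

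The INHBA and BMP7 probes were the most alike of the 45 pairs among these sequences. The longest run of bases shared by any of these pairs was 8, and no probes of different member genes shared a run of 14 or more bases. For BMP7, TGFBR2 and SMAD4 the sequence shown is that of a dimmer probe, and for the other genes it is that of the brightest. Below, a gene is given by its brightest probe over the 12 channels unless stated otherwise. The value is the log2 of the scaled signal, which orders samples for 1 probe but does not order different genes.

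Signals were read first for detection. Between 53% and 81% of all probes were well above background in a channel, and between 51 and 72 of the 78 member probes were. In all 12 channels 44 member probes for 29 genes were well above background, and 4 probes, 1 each of BMP15, GDF3 and GDF5 and the dimmer of BMP10, were in none. The intensity filter removed the probes of BMP15, FSTL4 and GDF5, which left 75 probes for 48 genes to be tested. No member spot was saturated. The dye-swapped arrays of P114 opposed each other over all probes after both were turned to co-culture over monoculture (r = -0.39). The correlation was 0.26 for CMT-U27, and for CMT-U309 it was -0.09. Over the probes above background in all 12 channels the 3 correlations were -0.14, 0.45 and 0.24. Results for co-culture are therefore given with and without P114. Among the member probes above background in all channels, the sign was the same on both arrays for 19 of 44 in P114 (43.2%, against 43.7% of all such probes), 28 in CMT-U27 (63.6%, against 65.2%) and 27 in the CMT-U309 line (61.4%, against 56.8%).

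Many of these genes differed between the lines, mostly with CMT-U27 lowest. A probe was called where limma gave an adjusted p under 0.05 and the fold change was over 2. Between CMT-U27 and CMT-U309, 36 of 75 member probes (48%) were called against 28.9% of all 40873 probes tested, with 28 higher in CMT-U309 (37.3%, against 13.3% of all) and 8 higher in CMT-U27 (10.7%, against 15.7%). Between P114 and CMT-U27, 24 member probes were called (32%, against 24.2%), with 20 higher in P114 (26.7%, against 11.6%) and 4 higher in CMT-U27 (5.33%, against 12.6%). Between P114 and CMT-U309, 13 were called (17.3%, against 14.5%), with 4 higher in P114 (5.33%, against 7.69%) and 9 higher in CMT-U309 (12%, against 6.85%). Scaling to the median array left the median probe 0.15 higher in P114 than in either other line on the log2 scale, and 0.04 higher in CMT-U27 than in CMT-U309. Without scaling these medians were -0.30, -0.63 and -0.28, and the members then split 15 against 11 between P114 and CMT-U27, 2 against 28 between P114 and CMT-U309 and 5 against 34 between CMT-U27 and CMT-U309. The first line of the pair then held 57.7%, 6.67% and 12.8% of the member calls, against 21%, 7.11% and 34.3% of the calls over all probes. With another background correction and normalization (normexp, loess and Aquantile) the splits in the same order were 11 against 1, 1 against 5 and 1 against 21, so that the first line held 91.7%, 16.7% and 4.55% of the member calls against 47.4%, 40.4% and 48.9% over all probes. With condition as a term, these p-values measure only how unevenly the lines changed between co-culture and monoculture, which shared their arrays. They do not measure a spread between separate cultures of the same line and condition.

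**Figure D1:**
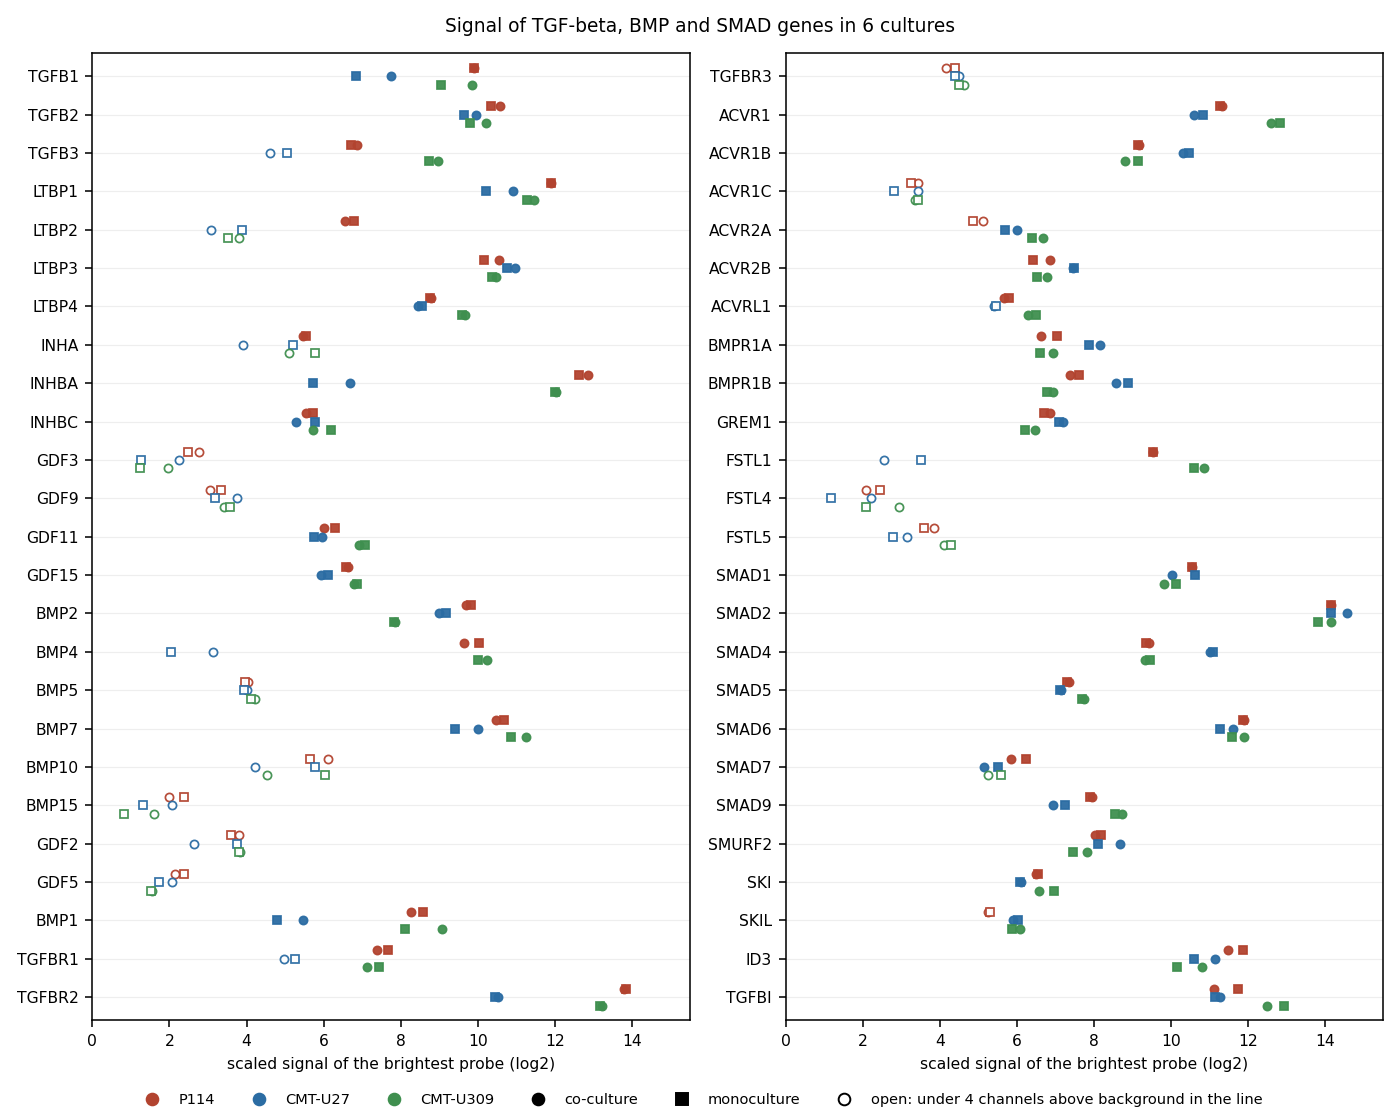
Scaled signal (log2, horizontal axis) of the brightest probe of 50 member genes in the 6 cultures, where each point is the mean of the Cy5 and Cy3 channels of 1 culture. Colours stand for lines, circles for co-culture, squares for monoculture, and open symbols for lines with under 4 channels above background. For BMP4, INHBA, FSTL1 and TGFBR2 both CMT-U27 points lie left of all 4 others, and for SMAD4 they lie right of them.

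Counted by gene, 8 of the 48 tested genes (16.7%, against 6.58% of all genes) were higher in both P114 and CMT-U309 than in CMT-U27. These were the ligands TGFB1, TGFB3, INHBA and BMP4, the receptors TGFBR1 and TGFBR2, the protease BMP1 and the secreted glycoprotein FSTL1. The receptors ACVR1B, BMPR1A and BMPR1B and the shared SMAD4 were lower in both than in CMT-U27 (8.33%, against 8.38% of all genes). CMT-U309 was above both other lines in ACVR1, FSTL1, TGFB3 and TGFBI (8.33%, against 3.99%), and P114 was above both in LTBP2 (2.08%, against 2.78%). Between P114 and CMT-U309 alone, 3 genes were higher in P114 (6.25%, against 7.53% of all genes) and 5 in CMT-U309 (10.4%, against 6.79%). For 24 of the 48 genes (50%, against 61.5% of all) no pair of lines was called.

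Among the ligands, the separation was widest for BMP4 and INHBA. BMP4, a BMP ligand, measured 9.63 in co-culture and 10.02 in monoculture of P114, 10.23 and 10.01 in CMT-U309, and 3.13 and 2.04 in CMT-U27. The CMT-U27 spots were not well above background in any of 4 channels, so only a bound can be given, at least 61.5-fold higher in P114 and at least 81.7-fold higher in CMT-U309. The adjusted p-values of these pairs (limma, 3.87e-08 and 2.57e-08) tested the measured signals scaled to the median array, and not the bounds. Bounds were set per channel after loess and Aquantile normalization, with dyes balanced by the swap. INHBA encodes the subunit of activin A. It measured 12.86 and 12.61 in co-culture and monoculture of P114, 12.02 and 12.01 in CMT-U309, and 6.67 and 5.72 in CMT-U27, where all 4 channels were above background. INHBA expression was 92.7-fold higher in P114 than in CMT-U27 (log2 difference 6.53 ± 0.21 SE, adjusted p = 7.26e-09) and 56.3-fold higher in CMT-U309 than in CMT-U27 (adjusted p = 1.32e-08). With normexp, loess and Aquantile, which add an offset of 50 to the signals, these log2 differences were 4.57 and 4.12 in size, and that of BMP4 between CMT-U309 and CMT-U27 was 3.46 in size.

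The 3 TGF-beta isoforms differed among themselves. TGFB1 measured 9.90 and 9.89 in co-culture and monoculture of P114, 9.84 and 9.04 in CMT-U309, and 7.75 and 6.83 in CMT-U27, so the CMT-U27 cultures lay below all others. The log2 difference was 2.60 between P114 and CMT-U27 (adjusted p = 6.89e-06) and 0.45 between P114 and CMT-U309, which did not pass (adjusted p = 0.148). TGFB3 measured 8.96 and 8.73 in CMT-U309, 6.87 and 6.72 in P114, and 4.61 and 5.05 in CMT-U27, where 3 of 4 channels were above background. Each step in that order passed, with CMT-U309 4.16-fold above P114 (log2 difference 2.06 in size, SE 0.22) and 16.3-fold above CMT-U27, although with normexp, loess and Aquantile these differences were 1.33 and 1.96 in size on the log2 scale. TGFB2 lay between 9.65 and 10.58 in all cultures and no pair was called at over 2-fold.

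BMP2 had another order. It measured 9.69 and 9.81 in P114, a mean of 9.09 in CMT-U27, and 7.85 and 7.83 in CMT-U309, and was lowest in CMT-U309 by 3.77-fold against P114 (adjusted p = 9.1e-06) and 2.38-fold against CMT-U27 (adjusted p = 7.63e-05). With normexp, loess and Aquantile these BMP2 differences were 1.3 and 0.72 on the log2 scale, and the one against CMT-U27 was no longer called. BMP7 measured 11.25 and 10.86 in CMT-U309, 10.47 and 10.67 in P114, and 10.01 and 9.42 in CMT-U27. The log2 difference of 1.34 in size between CMT-U309 and CMT-U27 passed both thresholds, while by this probe P114 and its neighbours in the order differed by under 2-fold. Of the dimmer BMP7 probes, 2 that overlap each other in the genome were called higher in P114 than in CMT-U27. Their log2 differences were 1.08 and 1.05 (limma, adjusted p = 0.00283 and 0.00428). GDF11, which acts through the activin receptors, was called higher in CMT-U309 than in CMT-U27, with 6.91 and 7.08 against 5.95 and 5.75. GDF15, a stress-induced member of the family, lay between 5.94 and 6.86 with no pair called. INHA, the inhibin subunit that opposes activin, and BMP5, GDF2, GDF3, GDF9 and INHBC also had no pair called.

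Proteins that store, release or bind the ligands followed the same division in part. FSTL1, a secreted follistatin-like glycoprotein, measured 9.53 in both cultures of P114, 10.86 and 10.59 in CMT-U309, and 2.54 and 3.50 in CMT-U27, where 2 of 4 channels were above background. The log2 difference over CMT-U27 was 6.51 in P114 (adjusted p = 4.11e-08) and 7.70 in size in CMT-U309 (adjusted p = 1.11e-08), and it was 2.60 and 3.51 in size with normexp, loess and Aquantile, so its amount is uncertain. BMP1, the procollagen C-proteinase that also cleaves the BMP antagonist chordin, measured 8.28 and 8.57 in P114, 9.06 and 8.11 in CMT-U309, and 5.47 and 4.79 in CMT-U27. These differences were 9.78-fold and 10.9-fold over CMT-U27, or 3.29 and 3.45 in size on the log2 scale, and 1.43 and 1.47 in size with normexp, loess and Aquantile.

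The latent TGF-beta binding proteins were not alike. LTBP2, a matrix protein of elastic fibres that does not bind latent TGF-beta, was 8.08-fold higher in P114 than in CMT-U309 (log2 difference 3.01, adjusted p = 9.74e-05), with 6.55 and 6.80 against 3.79 and 3.52, where 3 of 4 channels were above background. With normexp, loess and Aquantile this difference was 0.83 and no longer called. LTBP1 measured 11.88 and 11.89 in P114 and 10.92 and 10.21 in CMT-U27 and was called between these lines (log2 difference 1.32, adjusted p = 0.000183). LTBP4 was called higher in CMT-U309, at 9.67 and 9.58, than in CMT-U27, at 8.45 and 8.54. LTBP3 lay between 10.16 and 10.95 with no pair called by its brightest probe. Its dimmer probe, above background in all 12 channels, was called higher in CMT-U27 than in CMT-U309 (log2 difference 1.27, limma, adjusted p = 0.000232). Of the antagonists, GREM1, which traps BMPs, lay between 6.22 and 7.21, with no pair called.

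**Figure D2:**
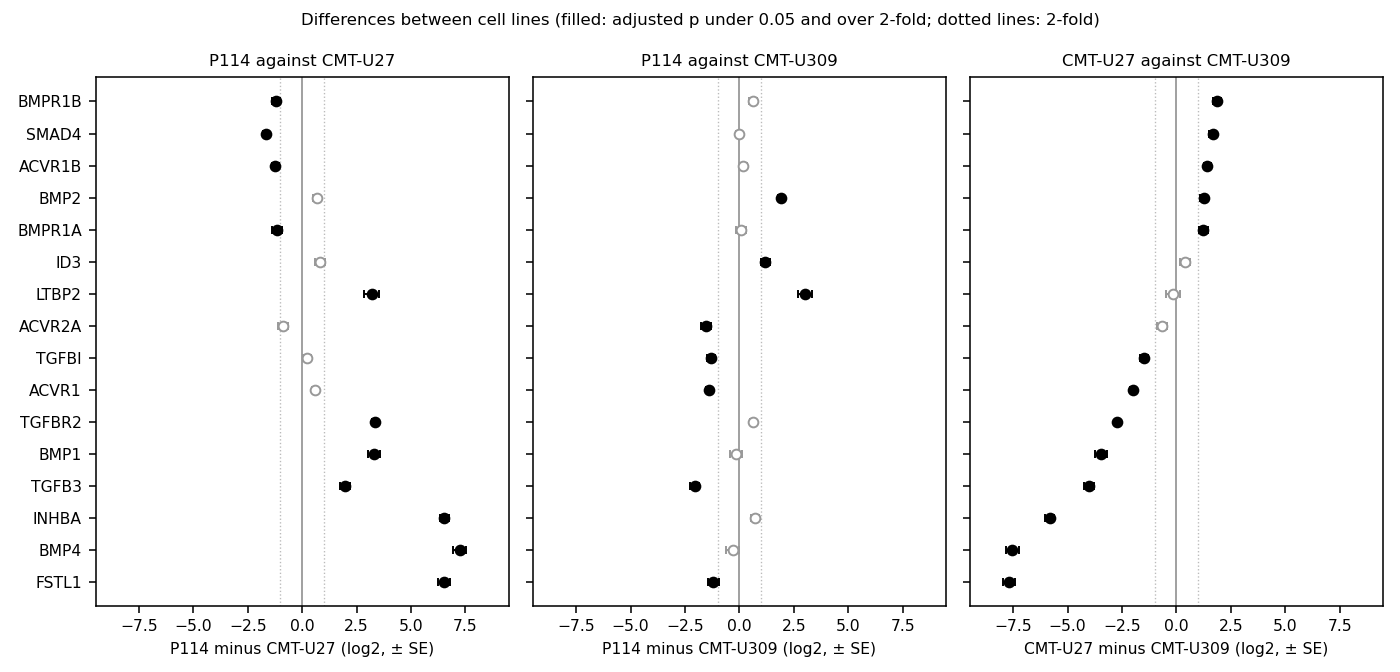
Log2 difference in scaled signal between each pair of lines (horizontal axes) for the 16 genes with the largest called differences. Bars are standard errors from limma, dotted lines mark 2-fold and filled points passed both thresholds. INHBA, BMP4 and FSTL1 lie farthest from 0 in the panels with CMT-U27, and LTBP2, at 3.01, lies farthest between P114 and CMT-U309. The BMP4 point in those panels rests on CMT-U27 spots not above background.

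The receptors split in both directions. TGFBR2, the receptor that binds TGF-beta first, measured 13.80 and 13.84 in P114, 13.22 and 13.16 in CMT-U309, and 10.53 and 10.43 in CMT-U27, and was higher in P114 than in CMT-U27 by a log2 difference of 3.34 ± 0.13 (SE, adjusted p = 3.05e-08). Its partner TGFBR1 measured 7.39 and 7.68 in P114, 7.12 and 7.42 in CMT-U309, and 4.98 and 5.25 in CMT-U27, and its log2 differences over CMT-U27 were 2.42 in P114 and 2.16 in size in CMT-U309. P114 and CMT-U309 did not differ beyond their spread in TGFBR1 (log2 difference 0.26, adjusted p = 0.349).

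The type I receptors BMPR1B, BMPR1A and ACVR1B were instead highest in CMT-U27. BMPR1B, a type I BMP receptor, measured 8.56 and 8.89 in CMT-U27, 7.38 and 7.62 in P114, and 6.92 and 6.78 in CMT-U309. It was 2.34-fold higher in CMT-U27 than in P114 (adjusted p = 0.000436) and 3.67-fold higher than in CMT-U309 (adjusted p = 1.97e-05). BMPR1A measured 8.15 and 7.86 in CMT-U27 and between 6.60 and 7.03 in the other lines, and ACVR1B, the type I activin receptor, 10.31 and 10.48 in CMT-U27 and between 8.81 and 9.17 in the others. Their differences over P114 were 2.25-fold and 2.36-fold. With normexp, loess and Aquantile the differences of these 3 receptors between CMT-U27 and the other lines were between 0.53 and 1.00 in size and none was called. ACVR1, another type I BMP receptor, was highest in CMT-U309, with 12.58 and 12.82 against 11.32 and 11.27 in P114 and 10.60 and 10.83 in CMT-U27. ACVR2A, a type II activin receptor, was 2.91-fold higher in CMT-U309 than in P114, where 3 of 4 channels were above background, and was not called with normexp, loess and Aquantile (log2 difference 0.55 in size). ACVR2B lay between 6.40 and 7.48, ACVRL1 between 5.41 and 6.50 and the co-receptor TGFBR3 between 4.17 and 4.62, with no pair called.

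Of the 7 SMADs, 2 were called in any pair of lines. SMAD4 measured 11.01 and 11.09 in CMT-U27, 9.42 and 9.34 in P114, and 9.33 and 9.45 in CMT-U309. It was 3.18-fold higher in CMT-U27 than in P114 (log2 difference 1.67 in size, SE 0.14, adjusted p = 7.48e-06) and 3.16-fold higher than in CMT-U309, which did not differ from P114 beyond the spread (adjusted p = 0.962). SMAD9, an effector of BMP signals, was higher in CMT-U309, at 8.73 and 8.54, than in CMT-U27, at 6.93 and 7.25. SMAD2 lay between 13.81 and 14.57, SMAD1 between 9.83 and 10.62 and SMAD5 between 7.13 and 7.75. The inhibitors SMAD6 and SMAD7 ranged from 11.26 to 11.88 and from 5.14 to 6.24, the latter with 11 of 12 channels above background. SMURF2, SKI and SKIL, which limit SMAD signals, had no pair called.

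Of the members, ID3 and TGFBI were grouped as induced targets. ID3, an inhibitor of differentiation induced by BMPs, measured 11.48 and 11.86 in P114, 11.14 and 10.60 in CMT-U27, and 10.79 and 10.15 in CMT-U309, and was 2.3-fold higher in P114 than in CMT-U309 (adjusted p = 0.00268), a call that was lost without scaling and with normexp, loess and Aquantile (log2 difference 0.43 and 0.95). TGFBI, a matrix protein induced by TGF-beta, measured 12.50 and 12.92 in CMT-U309, 11.11 and 11.73 in P114, and 11.28 and 11.15 in CMT-U27. It was 2.44-fold higher in CMT-U309 than in P114 (adjusted p = 0.000469).

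Several probes were printed for 19 of the tested genes and served as a second reading of these differences. Their signs were the same for 16 genes between P114 and CMT-U27, 14 between P114 and CMT-U309 and 17 between CMT-U27 and CMT-U309, and in no gene were probes called in opposite directions. The TGFBR2 probe printed above measured 9.33 and 9.62 in P114, 9.36 and 9.23 in CMT-U309, and 6.91 and 7.01 in CMT-U27, the division seen with the 2 brighter probes. The SMAD4 probe printed above measured 7.01 and 6.54 in CMT-U27, 5.84 and 5.79 in P114, and 4.72 and 4.95 in CMT-U309, so it also placed CMT-U27 highest. The BMP7 probe printed above measured 10.73 and 10.40 in CMT-U309, 10.25 and 10.22 in P114, and 9.59 and 9.07 in CMT-U27. It overlaps the brightest BMP7 probe in the genome, so it is not a separate reading. Base composition did not separate bright from dim members, as the median GC content was 45% both for the 44 probes above background in all channels and for the other 34.

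**Figure D3:**
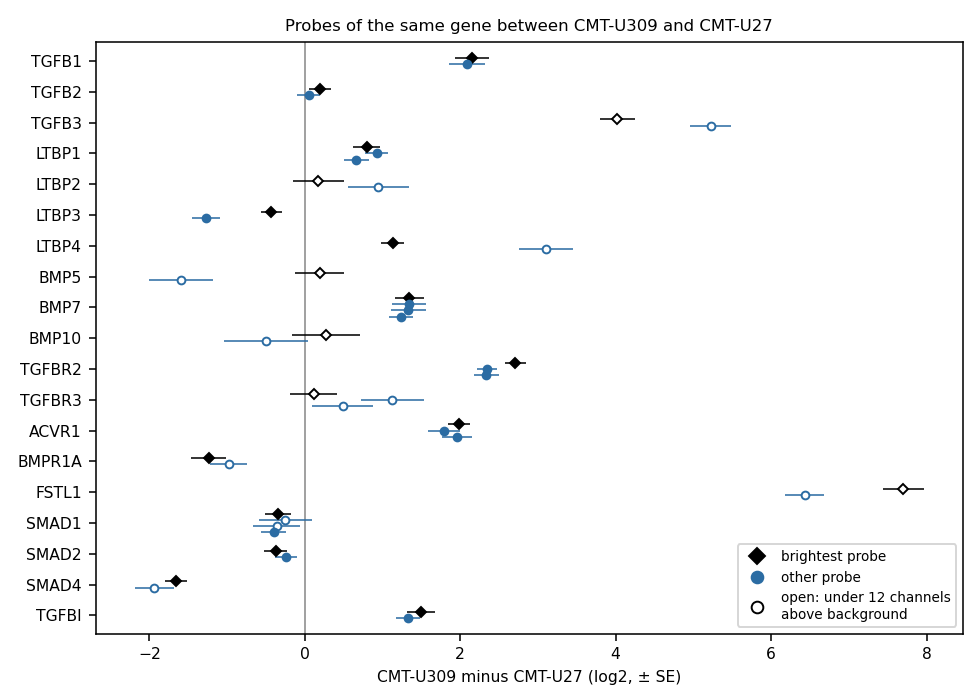
Log2 difference in scaled signal of CMT-U309 minus CMT-U27 (horizontal axis, bars are standard errors from limma) for every tested probe of the 19 genes with several probes. Diamonds mark the brightest probe, circles the others, and open symbols probes under 12 channels above background. The probes of BMP7, TGFBR2 and ACVR1 lie close together on the side of CMT-U309, and both SMAD4 probes on the side of CMT-U27.

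Markers of tissue type moved with the division between lines. The summed scaled signal of 8 mesenchymal markers lay between 266800 and 308500 in P114, between 378700 and 411200 in CMT-U309, and between 6514 and 6860 in CMT-U27, and 7 of the 8 were called higher in each of the former lines than in CMT-U27. The sum of 7 epithelial markers lay between 109600 and 124700 in CMT-U27, between 4840 and 5562 in P114 and between 5673 and 7245 in CMT-U309, and 6 of the 7 were called higher in CMT-U27 than in each of the others. The exception was the basal keratin KRT14, which was called higher in CMT-U309 than in CMT-U27, with levels of 12.58 and 11.05. EPCAM, an epithelial adhesion molecule, measured 15.27 and 15.58 in CMT-U27 and at most 9.32 in the other lines, and VIM, the mesenchymal intermediate filament vimentin, 10.26 and 10.13 in CMT-U27 and at least 16.23 in the others. The part of these tissue differences in the levels of the TGF-beta and BMP genes was not tested. In cultures measured in bulk, fewer cells of a kind and less RNA per cell cannot be told apart.

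Other genes of the pathway, 54 by list and 42 with a probe, were read in the same fits. Between P114 and CMT-U27, 9 were higher in P114 (21.4%, against 11.6% of all genes) and 7 in CMT-U27 (16.7%, against 11.9%). Between CMT-U27 and CMT-U309, 7 were higher in CMT-U27 (16.7%, against 14.7%) and 13 in CMT-U309 (31%, against 13.5%). BAMBI, the pseudoreceptor that blocks TGF-beta receptors, was higher in P114 (9.65 and 9.84) and CMT-U309 (9.93 and 9.90) than in CMT-U27 (7.41 and 7.65). NEDD4L, a ubiquitin ligase for activated SMAD2 and SMAD3, measured 13.85 and 13.98 in CMT-U27 and at most 10.95 in the other lines. ITGB6, the integrin subunit that activates latent TGF-beta, measured 7.81 and 8.01 in CMT-U27, 5.21 and 4.27 in P114, and 2.12 and 1.41 in CMT-U309. Between P114 and CMT-U309, 5 were higher in P114 (11.9%, against 7.53%) and 7 in CMT-U309 (16.7%, against 6.79%).

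Co-culture with MDSCs was compared with monoculture in all 3 lines, which is the main comparison of the study. None of the 75 member probes passed the thresholds of the methods (p under 0.05 before adjustment, with over 2-fold change), against 1.22% of all probes tested (1.03% higher in co-culture and 0.191% lower). None had an adjusted p under 0.05 with limma, and none of the 40873 probes had. By unadjusted p alone 9 member probes were under 0.05 (12%, against 9.94% of all), 6 of them higher (8%, against 5.81%) and 3 lower (4%, against 4.12%). The smallest adjusted p among the members was 0.498. The t-test of the methods also called no member. The median log2 ratio over the 48 genes was 0.002, beside 0.001 over all 33193 genes. By line the median of the members was -0.003 for P114, 0.048 for CMT-U27 and 0.092 for CMT-U309, and 24, 26 and 30 of 48 genes were higher in co-culture. Of 44 member probes above background in all channels, none had the same sign on all 6 arrays, against 5.88% of all such probes.

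By gene, 3 members were higher and 3 lower at an unadjusted p under 0.05, none past the correction (6.25% each, against 5.64% of all genes higher and 4.48% lower). TGFB1 had log2 ratios of -0.17 and 0.19 on the arrays of P114, 0.89 and 0.95 in CMT-U27, and 1.01 and 0.57 in CMT-U309, with a mean of 0.57 ± 0.18 (SE, 3 lines). Its second probe gave -0.52 and 0.17, 0.85 and 0.87, and 0.88 and 0.56, so both probes were above 0 on all arrays of CMT-U27 and CMT-U309 and divided in P114. TGFB2 had a mean of 0.32 ± 0.11 and lay above 0 on 5 of 6 arrays. INHBA had ratios of 0.90 and 0.99 in CMT-U27, 0.30 and 0.19 in P114, and 0.02 and -0.00 in CMT-U309, so its value came mainly from the line with the lowest level. Among the lower genes were BMP10 (mean -0.87 ± 0.36) and INHA (-0.69 ± 0.26). With normexp and loess these were -0.04 and -0.01, against 0.35 for TGFB1, 0.28 for TGFB2 and 0.22 for INHBA. A second BMP10 probe, above background in no channel, had a mean of 0.64.

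BMP10 and INHA were dim, with 9 and 10 of 12 channels above background, and their dye-swapped arrays were far apart. INHA, for example, had ratios of -0.14 and -2.48 in CMT-U27 and 0.41 and -1.79 in CMT-U309. For some other members the sign followed the dye. SMAD4 had ratios of 0.52, 0.25 and 0.36 on the 3 arrays with co-culture in Cy5, and -0.36, -0.40 and -0.59 on the 3 with co-culture in Cy3, and its mean was -0.04. Such a division by dye was found for 5 of the 44 member probes above background in all channels (11.4%, against 9.37% of all such probes), 1 each for SMAD2, SMAD4, TGFBR2, BMP2 and SKI. The dye effect cancels in the mean of a line.

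**Figure D4:**
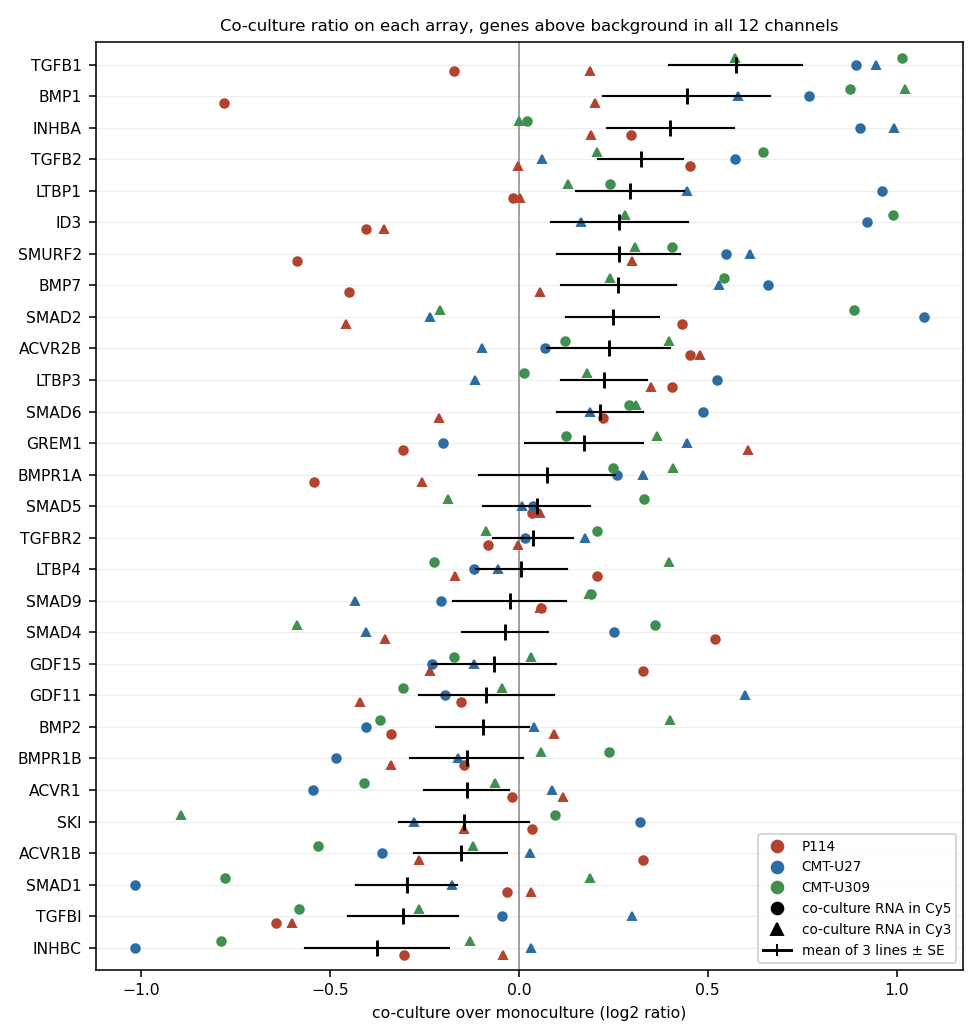
Log2 ratio of co-culture over monoculture (horizontal axis) on each of the 6 arrays for the 29 genes above background in all 12 channels. Colours stand for lines, circles for co-culture RNA in Cy5, triangles for Cy3, and the black tick and bar for the mean of 3 lines ± SE. TGFB1 lies between 0.57 and 1.01 on the arrays of CMT-U27 and CMT-U309 and on either side of 0 in P114.

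With the arrays of P114 left out, 17 member probes for 14 genes had an adjusted p under 0.05 in the other 2 lines (22.7%, against 15.6% of all probes). Of these, 13 probes were higher in co-culture (17.3%, against 8.98%) and 4 were lower (5.33%, against 6.58%), and 12 of the 17 had one sign on all 4 arrays. With CMT-U27 or CMT-U309 left out instead, 0 members had an adjusted p under 0.05 with limma, against 0% and 0.0612% of all probes. By unadjusted p 2 and 5 members were under 0.05, which was not counted over all probes. Without P114, TGFB1 rose by 0.86 ± 0.12 on the log2 scale (adjusted p = 0.000936), and its second probe by 0.79 (adjusted p = 0.002). In P114 the mean TGFB1 ratio was 0.01. BMP1 rose by 0.81 (adjusted p = 0.00524), BMP7 by 0.49 (adjusted p = 0.00883) and ID3 by 0.59 (adjusted p = 0.00253), and their ratios in P114 were -0.29, -0.20 and -0.38. LTBP1, TGFB2, SMAD2, SMAD6 and SMURF2 also rose, by 0.32 to 0.47, but the second probes of TGFB2 and SMAD2 gave 0.03 and 0.10 and did not pass. The other BMP7 probes were divided, with 0.42 past the correction and 0.33 and 0.31 not (limma, adjusted p = 0.0838 and 0.132). The probe at 0.42 overlaps the brightest BMP7 probe in the genome, and those at 0.33 and 0.31 overlap each other at another site. Of the other LTBP1 probes, that at 0.45 passed and that at 0.16 did not (adjusted p = 0.281). The SMAD2 ratios of 1.07 and -0.24 in CMT-U27 and 0.89 and -0.21 in CMT-U309 divided by dye. BMP4 had a value of 0.65 but was not above background in CMT-U27. SMAD1 fell by 0.45, and BMP10 and INHA fell by 1.53 and 1.00. The 3 other SMAD1 probes gave -0.12, 0.12 and -0.11, and the dim second BMP10 probe 0.83, none of which passed. Past the thresholds of the methods were 2 of these, BMP10 and INHA, both lower (2.67% of members, against 1.4% of all probes lower and 6.55% in either direction). Among the 44 member probes above background in all 12 channels, 13 had an adjusted p under 0.05 (29.5%, against 19.7% of all such probes). With 2 lines the spread between them rests on 1 difference per gene.

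Markers of myeloid cells were read for RNA of the MDSCs in the harvest. Of 16 listed, 13 had a probe, none was called in co-culture and none had an unadjusted p under 0.05. ITGAM, the gene of CD11b, SPI1 and LYZ were in no channel above background. The summed scaled signal of the list was 1727 in co-culture and 1717 in monoculture of P114, 1635 and 1604 in CMT-U309, and 13710 and 7999 in CMT-U27, the line where S100A8, a calprotectin subunit that epithelial cells also make, was highest (13.49 and 12.64). The sum was higher in co-culture in all 3 lines, but by little in P114 and CMT-U309. Of the 13 markers, 3 were above background in all 12 channels, monoculture included: CD68, S100A8 and ITGB2. The sum therefore cannot tell RNA of the MDSCs from RNA of the tumor cells. The part of MDSC RNA in the TGFB1 ratio was not tested.

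Among the 42 other pathway genes none was called in co-culture by the thresholds of the methods. At an unadjusted p under 0.05, FKBP1A, which guards the type I receptors, had a mean log2 ratio of 0.35 ± 0.11 and the BMP target RUNX2 0.37 ± 0.13. The TGF-beta binding proteoglycan DCN had a value of -0.56 ± 0.12, and HEY1, a BMP target, -0.67 ± 0.30. Each of these had an adjusted p of 0.498, and the median over the list was -0.13.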

How the data were processed

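RNA of co-cultured and monocultured cells was hybridised on 6 Agilent canine arrays, and the authors extracted signals with Feature Extraction (10.7.3.1 in the submitters' notes, 10.10.1.1 per the file headers). The background-subtracted, dye-normalized intensity of each channel is the deposited scanner value, per the file headers. The deposited value table holds log10 ratios of co-culture over monoculture, which differed from the scanner log ratios turned to that direction by at most 4.997e-06. It served only as an alternative. Depth is not defined for arrays, and the number of arrays limits the precision.

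Channels were scaled to the median array, probes with a maximal scaled intensity of 10 or less were removed and log2 values were taken. These log2 ratios of deposited intensities, turned to co-culture over monoculture, were averaged over the 2 arrays of a line and tested against 0 over 3 lines with limma 3.58.1 (R 4.3.3, eBayes with trend, Benjamini-Hochberg over all 40873 probes). Levels of lines were compared over 6 cultures with condition as a term. A member was called in co-culture at the thresholds of the methods, and between lines at an adjusted p under 0.05 and a fold change over 2. The scripts were tested on simulated data. The t-test of the methods, normexp with offset 50, loess, quantile or no scaling, the intensity filter, the dye as replicate block and leaving out arrays or lines were tried as alternatives.

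Genes were named as follows: the core genes of the pathway, members called in co-culture, the 5 largest differences in each direction between lines, and members with one sign on all arrays. The members, gene lists and rules were chosen with earlier results of these data known. Some genes of these lists count in the totals and are not reported here by name.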

Additional observations from a re-analysis of the deposited data

Results flagged for a closer look

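For 7 of the 48 genes both arrays of one line had a ratio of co-culture over monoculture below 0 while both arrays of another line had one above 0 (14.6%, against 21.8% of all genes). The difference between lines was not tested for any of them. ID3 had a mean log2 ratio of -0.38 for P114, 0.54 for CMT-U27 and 0.64 for CMT-U309. BMPR1A followed the same order with -0.40, 0.29 and 0.33. TGFBR2 had -0.04, 0.10 and 0.06, all small. BMPR1B had -0.24 in P114 and -0.32 in CMT-U27 against 0.15 in CMT-U309. SMAD9 had -0.32 in CMT-U27 against 0.06 in P114 and 0.19 in CMT-U309. FSTL1 had -0.96 in CMT-U27, where its spots were near background, against 0.27 in CMT-U309. FSTL5, with 5 of 12 channels above background, had -0.19 in CMT-U309 against 0.36 in CMT-U27.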

How the results depend on the processing

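For each pair of lines, up to 5 of the largest called differences in each direction were rerun, 27 in total. These 27 kept their direction under the alternatives run, and 16 of 378 such values lost their call. Of the 16, 11 lost it with normexp, loess and Aquantile, which moved 17 of the 27 by over 1.5 times. The other differences between lines were not recomputed gene by gene. With normexp, loess and Aquantile the members called were 12 between P114 and CMT-U27, 6 between P114 and CMT-U309 and 22 between CMT-U27 and CMT-U309, against 24, 13 and 36. Calls over all probes fell too, to 8.88%, 4.89% and 10.4% from 24.2%, 14.5% and 28.9%. Without scaling 30 members were called between P114 and CMT-U309, and the share of all probes called rose from 14.5% to 28.6%. The cause was not tested. Leaving out one array in turn gave 25 to 28, 12 to 14 and 34 to 39, beside 21.5% to 25.3%, 12.1% to 16.6% and 26.7% to 29.5% of all probes. In co-culture 0 members were called, and leaving out one array gave 0 to 3. Of these, 3 were called without the first P114 array (BMP10 at -1.19 and, above background in no channel, its second probe at 1.06 and GDF3 at 1.14) and 3 without the first array of CMT-U27 or of CMT-U309 (BMP10 and INHA among them). Calls over all probes rose too, from 421 higher and 78 lower to 1846 and 701 without the first P114 array. They were 697 and 466 without the first array of CMT-U27, and 1024 and 617 without that of CMT-U309. Leaving out P114 gave 2, both lower. The median log2 ratio of members ranged from -0.041 to 0.049 over arrays left out. With the dye as replicate block 0 members were called in co-culture, and 18 had an unadjusted p under 0.05 against 9. That fit took the 6 arrays as replicates, although the 2 arrays of a line held the same RNA extracts. The share of all probes at that unadjusted p was not counted for this alternative. Between lines the array number as replicate block, again with arrays as replicates, gave 25, 13 and 36 members, beside 23.6%, 14.2% and 28.1% of all probes. Arrays with the same number correlated at -0.22 to 0.61 over all probes and at -0.09 to 0.75 over those above background in 12 channels. The labels tie the number to the dye, and whether it marks anything else was not tested. Of 902 co-culture values of named genes over all alternatives 46 changed sign, none of them for a gene with an unadjusted p under 0.05. Dim members limit what can be read, as 34 of 78 probes were not above background in every channel.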

Other observations

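Probes whose description, but not symbol, named a gene of the family numbered 18 for 16 genes, and 6 of the 12 core genes without a member probe were among them. FST, the activin-binding protein follistatin, measured 8.70 and 9.25 in co-culture and monoculture of P114, 5.92 and 5.66 in CMT-U309, and 2.59 and 2.07 in CMT-U27, where it was not above background in any channel. A second FST probe gave 7.86 and 8.04, 7.18 and 7.38, and 6.90 and 7.18, so its range was narrower and no pair passed 2-fold. BMPR2, the type II BMP receptor, measured 8.01 and 7.83 in P114, 8.26 and 8.16 in CMT-U309, and 6.99 and 6.73 in CMT-U27, lower there as TGFBR2 was. SMURF1, a ubiquitin ligase for BMP SMADs, measured 7.24 and 7.37 in P114, 7.73 and 7.44 in CMT-U309, and 5.43 and 5.69 in CMT-U27. ID2, an inhibitor of differentiation as ID3 is, measured 13.01 and 13.78 in CMT-U27, 11.06 and 11.11 in P114, and 10.74 and 11.21 in CMT-U309, and its log2 difference of 2.42 between CMT-U27 and CMT-U309 passed the thresholds. The mean log2 ratio of ID2 on co-culture was -0.43 ± 0.14 (SE, limma, unadjusted p = 0.0125, adjusted p = 0.498). By line, CMT-U27 had -0.77, CMT-U309 had -0.47 and P114 had -0.05. ID2 lay below 0 on both arrays of CMT-U27 and of CMT-U309, where ID3 lay above 0. Its arrays of P114 were divided. ENG, a TGF-beta co-receptor, lay between 6.81 and 7.61 in all cultures.

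Some member genes lie near each other in the canFam2 genome. ACVR1B and ACVRL1 probes are 63016 bases apart on chromosome 27, and ACVR1B was called between lines while ACVRL1 was not. SMAD5 and TGFBI probes are 103959 bases apart on chromosome 11, and ACVR1C and ACVR1 probes 202056 bases apart on chromosome 36.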
